A study of Homo sapiens with 21 samples.

Results

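The genes described here encode proteins that tie the cortical cytoskeleton of a muscle cell to its membrane: dystrophin (DMD), its relative utrophin (UTRN), α- and δ-sarcoglycan (SGCA, SGCD), α-dystrobrevin (DTNA), ankyrin-B and ankyrin-G (ANK2, ANK3), and the non-erythroid spectrins βII (SPTBN1) and αII (SPTAN1). The members were all transcripts of these 9 genes that appear in any of 6 deposited tables of differential expression, found by gene symbol. This gave 43 transcripts with 82 listed values, out of 21537 transcripts and 36579 values in the tables as a whole. A table lists a transcript only where its q-value is at most 0.05, so being listed is what chose the members, and their changes are given as a description.

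RNA was sequenced from PGP1, an established human induced pluripotent stem cell (iPSC) line, during directed differentiation to cardiomyocytes (CMs), with Wnt signaling first activated by CHIR99021 and then blocked by IWP4. Wild-type cells were taken at 5 stages with 3 libraries each: as undifferentiated iPSCs, as mesoderm (written M), as cardiac mesoderm (CMes), as progenitors of the heart (CP), and as CMs. A further 6 libraries came from beating CMs of 2 UBE2B-/- lines, UBE2B-/-1 and UBE2B-/-2, with 3 libraries each. UBE2B is an E2 enzyme of the complex that places monoubiquitin on histone H2B (H2Bub1). All groups share the PGP1 background and the same differentiation. Each knockout line came from picked colonies after its own CRISPR-Cas9 experiment, with a different protocol for delivery, so line and clone cannot be told apart. More UBE2B-/- than wild-type cells were plated before differentiation, and beating CMs were selected in lactate medium. Replicates were pools of wells from plates that started differentiation at different times. The stage comparisons ask which transcripts change at each step of differentiation. The knockout comparisons ask what differs between UBE2B-/- and wild-type CMs. The paper reports less total H2Bub1 in the knockout lines, from blots of iPSC and M cells.

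Some terms recur below. A change is the effect of the authors' Sleuth fit, converted to log2, with its standard error (SE). A level is the group mean on the log scale turned back into estimated counts, after normalization between libraries. All levels were put on the scale of the CP to CM comparison. Values of single libraries are not in the tables; the spread is given as the pooled standard deviation (SD) between libraries of a group, n = 3 per group. Total counts per library are unknown here. A transcript is said to rise or fall where q was at most 0.05 and the natural-log effect at least 0.585, a 1.79-fold change.

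The labels were checked first. From CP to CM, 8 of 8 cardiomyocyte marker genes rose in their most abundant listed transcript, and 4 of 5 pluripotency genes fell. The summed level of these cardiomyocyte genes was 10275 at CP and 432773 at CM. The MYL2 and TNNT2 transcripts in that sum were at 0 at CP. Another TNNT2 transcript was at 274.5 at CP and 17821 in CMs. Other marker lists moved at this step too. Of 9 mesenchymal genes 2 rose and 6 fell, and the summed level of the 8 with values was 43179 at CP and 10453 at CM. Of 6 endoderm and epithelial genes 3 fell, and of 5 endothelial genes 3 fell. Of 4 smooth muscle genes 4 rose, and of 5 neuronal genes 3 rose. The part of these shifts in the CP to CM changes below was not tested. Of UBE2B, 4 transcripts were listed from CP to CM. In UBE2B-/-1 1 of these was lower than in wild type by a log2 change of -1.91 (SE 0.53), and UBE2B-/-2 listed none; for the same transcript the line 2 value solved from the fit was -1.57.

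Other cell types also moved in the UBE2B-/- CMs. Cardiomyocyte genes fell in 4 of 8 cases in UBE2B-/-1 (median log2 change -1.52) and in 6 of 8 in UBE2B-/-2 (median -1.90). Mesenchymal genes rose in 3 of 9 cases in UBE2B-/-1 and 5 of 9 in UBE2B-/-2, COL3A1 by 3.51 and 4.81 (SE 0.79) on the log2 scale. For the 6 cardiomyocyte genes with a value in each group, the summed level was 101092 in wild-type CMs, 31290 in UBE2B-/-1 and 26736 in UBE2B-/-2. For 6 mesenchymal genes it was 9185, 97851 and 220554, with the PDGFRA transcript at 0 in 1 of these groups. Only transcripts listed for a line have values there, and those were all lower for cardiomyocyte and all higher for mesenchymal genes. The direction of these sums was thus set by the listing. MYH7, at 193261 in wild-type CMs, and NKX2-5 were listed for neither line and are not in the cardiomyocyte sum. Of smooth muscle genes 1 of 4 fell in each line. Of neuronal genes 2 of 5 rose in UBE2B-/-1, of endothelial genes 1 of 5 rose in UBE2B-/-2, and of endoderm and epithelial genes 1 of 6 fell in UBE2B-/-2. No pluripotency or skeletal muscle gene was listed for either line. In bulk RNA, fewer cells of a type and less RNA per cell cannot be told apart, and the part of these marker shifts in the values below was not tested.

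Dystrophin binds actin at one end and, at the other, β-dystroglycan, which with the sarcoglycans spans the membrane and reaches the laminin outside. Dystrobrevin binds dystrophin and carries syntrophins. Spectrin tetramers of α and β subunits form a lattice under the membrane, and ankyrins fasten ion channels and transporters to it; in cardiomyocytes ankyrin-B is known for holding the sodium-calcium exchanger and ankyrin-G for the sodium channel of the intercalated disc. DMD, UTRN, ANK2, ANK3 and the spectrins use several starts and many cassette exons, so that 1 gene makes short and long proteins.

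Across the stages, few members were listed early and most at the last step. From iPSC to M 2 member transcripts rose and 3 fell (of all transcripts tested, 1.24% rose and 1.62% fell). From M to CMes 4 rose and 1 fell (3.81% and 2.65% of all). From CMes to CP 9 rose and 1 fell (3.8% and 2.63%). From CP to CM 28 rose and 2 fell (8.25% and 6.99%). The 28 came from 7 of the genes, all but UTRN and SGCD. The median change of the 32 members listed at this step was 3.24 on the log2 scale, beside 0.63 for all 12982 listed transcripts. At the earlier steps it was -1.02 beside -0.47, 0.73 beside 0.57, and 1.19 beside 0.40. The members were selected by being listed, so these shares describe the list and are no test of it.

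**Figure D1:**
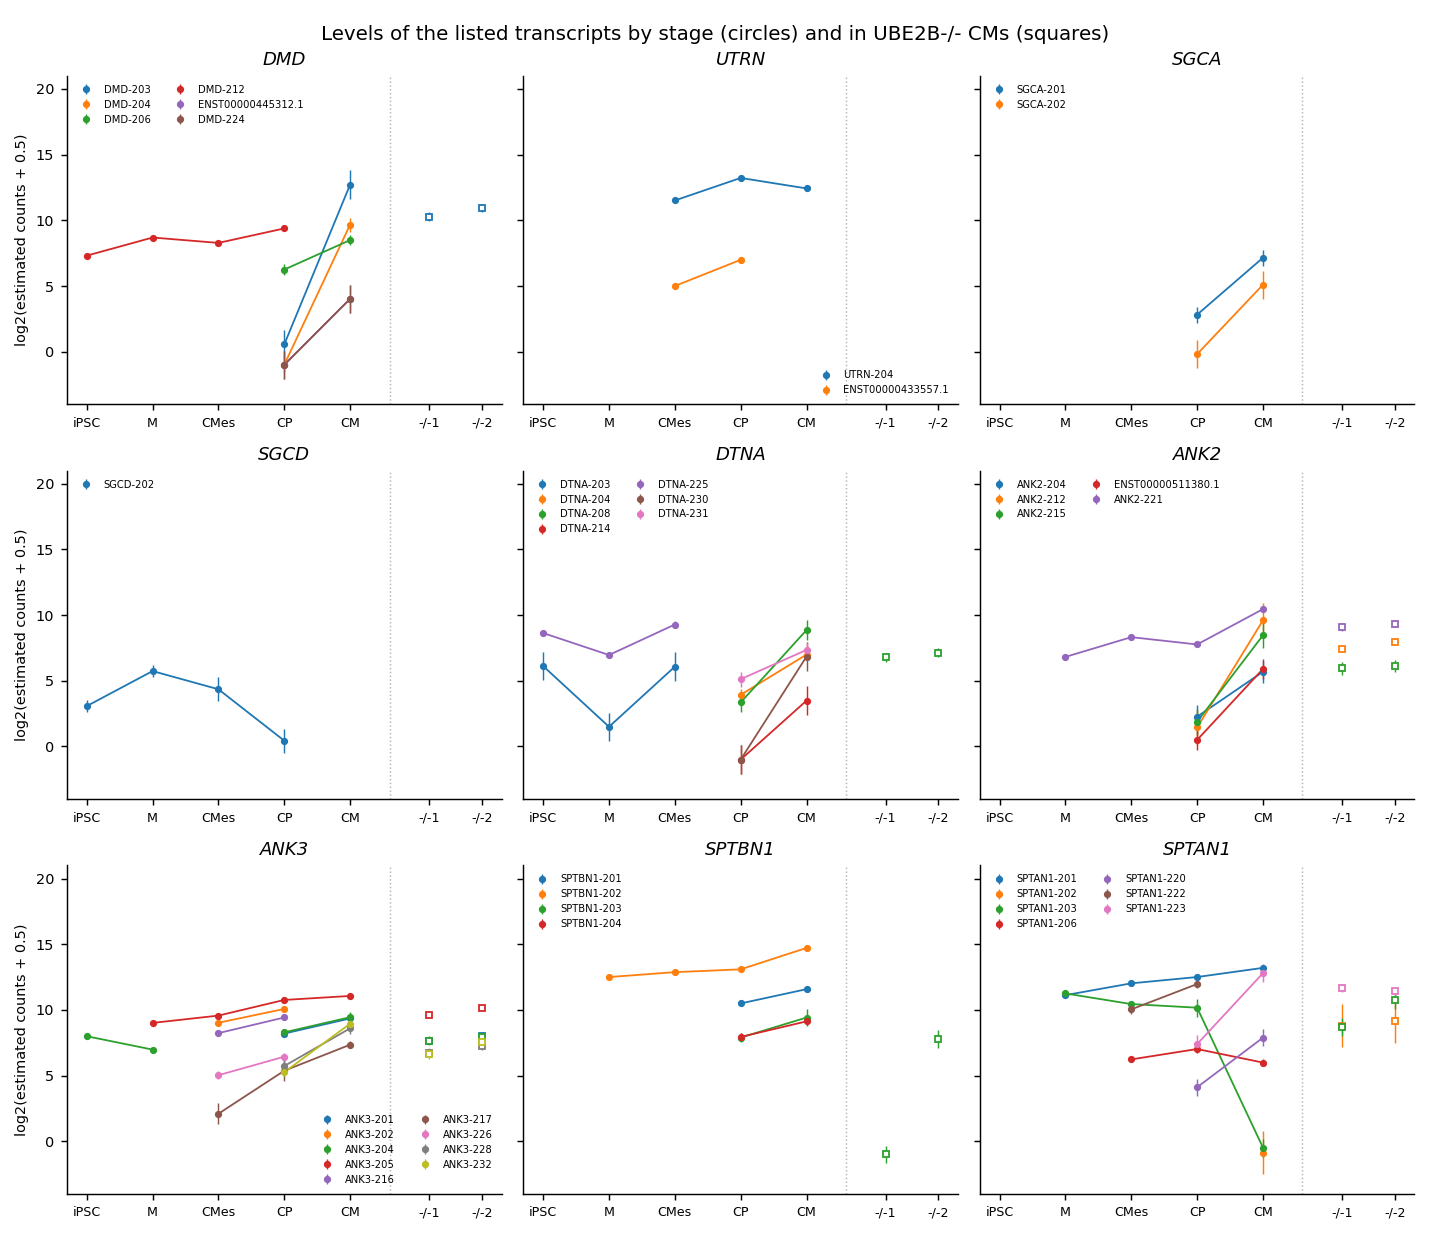
Level of each listed transcript as log2(estimated counts + 0.5), 1 panel a gene. Circles are wild-type cells from iPSC to CM, and squares are CMs of UBE2B-/-1 and UBE2B-/-2. Bars are the standard error of a group mean from the pooled error of the fit, the largest where several comparisons hold the group. A missing point is a group for which no value is given. DMD-203 goes from 0.962 at CP to 6712 at CM, whereas SPTBN1-202 stays between 5781 and 26914 from M to CM; ENST00000445312.1 lies under DMD-224.

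DMD (chrX:31097677-33339609, minus strand; GRCh38, GENCODE 44) showed its largest differences between transcripts with different starts. DMD-203 holds all 79 exons of the reference transcript and encodes the full-length muscle protein. Its level was 0.962 at CP and 6712 at CM (SD between libraries 1.92 on the log2 scale), a log2 change of 12.16 (SE 1.56, q = 3.8e-13). Given that mean, no single CP library can have held more than 12.0 estimated counts. The groups are thus far apart, but the exact fold rests on counts near 0 at CP. DMD-204 starts at exon 37 and was at 0 in every CP library and at 812 in CMs, which is at least 271-fold higher against a floor of 3 counts per library. DMD-224, a short transcript without an annotated coding sequence, and ENST00000445312.1, which has no match in the annotation, were also at 0 at CP and reached 15.7 each in CMs, at least 5.24-fold and 5.23-fold higher. Their fitted changes were 5.02 each; whether they share reads was not tested.

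The short dystrophins had another course. DMD-206 and DMD-212 begin with a first exon of their own and go on from exon 63, so they lack the actin-binding end. DMD-212 was present from the start, at 158 in iPSCs, 413 at M, 311 at CMes and 667 at CP. It rose from iPSC to M by 1.38 (SE 0.19) and from CMes to CP by 1.1 (SE 0.22). The change between M and CMes was not listed and, read from the neighbouring tables, was -0.41. Its change from CP to CM was not listed. DMD-206 rose at that step, from 75.6 to 360 (log2 change 2.25, SE 0.57). Most of the error of that value, 84.1% of the variance, came from the assignment of reads to transcripts. Per kilobase of transcript, DMD-212 stood at 144 and DMD-203 at 0.0688 at CP; in CMs DMD-203 stood at 480.

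The starts of the full-length and the short form lie far apart in the gene and differ in base composition. The 200 bases before each start are shown because the transcripts they lead to differ so widely in course. Capitals mark matches to any of 5 motifs searched on both strands. DMD-203 is preceded by chrX:33211550-33211749 and DMD-212 by chrX:31266953-31267152, both on the minus strand.
DMD-203 start: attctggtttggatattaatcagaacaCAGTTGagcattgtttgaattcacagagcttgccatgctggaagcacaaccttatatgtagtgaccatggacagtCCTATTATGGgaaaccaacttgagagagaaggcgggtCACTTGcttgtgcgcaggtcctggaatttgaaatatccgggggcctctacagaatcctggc
DMD-212 start: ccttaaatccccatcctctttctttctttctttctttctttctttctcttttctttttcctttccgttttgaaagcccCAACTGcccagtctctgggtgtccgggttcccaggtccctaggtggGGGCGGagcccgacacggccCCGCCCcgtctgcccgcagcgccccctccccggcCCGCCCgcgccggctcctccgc
The window before DMD-203 had a GC content of 46% with 3 CpG dinucleotides, 2 E-boxes, written CANNTG, and 1 CArG box, the element bound by serum response factor. The window before DMD-212 had 62.5% GC with 15 CpG dinucleotides, 1 E-box and 3 GC boxes, written GGGCGG. No matches overlapped each other. Among 35114 start windows of the same length in the RefSeq promoter table (GRCh38), 54.0% held an E-box, 40.1% a GC box, 28.0% a CCAAT box, 8.59% a TATA box and 0.983% a CArG box. Neither window held a TATA box, written TATAAA, or a CCAAT box. A match is a string of letters and no evidence that a factor binds.

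Dystrophin transcripts also differ near the other end. Exon 71 and exon 78 of the gene are cassettes, and exon 78 sets which end the protein has. They are printed with 10 bases of intron in lower case on each side.
DMD exon 71, chrX:31177922-31177980: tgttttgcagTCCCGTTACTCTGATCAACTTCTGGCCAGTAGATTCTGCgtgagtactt
DMD exon 78, chrX:31126632-31126683: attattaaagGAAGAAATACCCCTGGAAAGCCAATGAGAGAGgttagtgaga
DMD-203 holds both, DMD-204 and DMD-206 hold neither, and DMD-212 holds exon 71 but not exon 78. In CMs the form with both stood at 480 per kilobase, beside 95.2 for DMD-204 and 162 for DMD-206. In the CP to CM fit the SEs of these log2 levels were 1.11, 0.54 and 0.40, and the gaps were not tested. DMD-212 has no value in CMs. No DMD transcript was listed with a negative change between stages.

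Utrophin, which can take the place of dystrophin at the membrane, peaked earlier. UTRN (chr6:144285335-144853034) had UTRN-204, with the 75 exons of the reference transcript, at 2919 at CMes, 9586 at CP and 5514 in CMs. The rise from CMes to CP was 1.72 (SE 0.17, q = 6.4e-21, SD between libraries 0.21). The next change, -0.80 (SE 0.16, q = 9.1e-06), was listed but below the fold limit; it is 1.74-fold and would pass a limit of 1.5-fold. ENST00000433557.1, not in the annotation used here, rose at the same step by 2.00 (SE 0.30). No UTRN transcript was listed for either knockout line. In CMs DMD-203 stood at 480 and UTRN-204 at 427 estimated counts per kilobase, a gap of 0.17 on the log2 scale with an SE of 1.11, so they did not differ beyond their error. That SE is from the CP to CM fit, which for DMD-203 pools the CM libraries with CP libraries near 0. In the fit of CMs alone, the SE of the log2 level of DMD-203 was 0.32.

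The sarcoglycans were listed at different steps. SGCA (chr17:50164214-50175928), whose product α-sarcoglycan is known from striated muscle, rose from CP to CM in both listed transcripts. SGCA-201 went from 6.56 to 142 (log2 change 4.33, SE 0.88) and SGCA-202, which lacks 2 exons of the reference transcript, from 0.379 to 33.8 (5.29, SE 1.5). SGCD (chr5:155870344-156767788) was listed early only. SGCD-202 stood at 7.91 in iPSCs, 52.9 at M, 19.9 at CMes and 0.856 at CP. It rose by 2.67 (SE 0.67) and then fell by 1.39 (SE 0.48) and by 3.97 (SE 1.27). The CP mean in the last of these fits allows up to 12.1 counts in 1 CP library (log2 SD between libraries 1.15). The size of that fall thus rests on counts near 0. The fall from M to CMes had the highest q-value of all member values, 0.0424. SGCD-202 has a first exon of its own and shares exons 3 to 9 with the reference transcript, the last of 8572 bases; no other SGCD transcript was listed.

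Different α-dystrobrevin transcripts were listed early and late. Of DTNA (chr18:34493291-34891844), the transcripts listed in the early tables were DTNA-203 and DTNA-225. DTNA-225 stood at 396 in iPSCs, 124 at M and 623 at CMes, a fall of 1.67 (SE 0.35) and a rise of 2.32 (SE 0.34). DTNA-203 went from 68.9 to 2.33 and back to 66.9 (q = 0.041 and 0.031), with a log2 SD between libraries of 1.82 and 1.87 the widest among the members before CP. The M means in these fits allow up to 103 and 117 counts in 1 M library, so the dip may be absent there. The 5 transcripts listed from CP to CM were others, and each rose. DTNA-208 had the highest CM level, from 9.71 to 464 (5.51, SE 1.07). DTNA-230 rose from 0.000107 to 114 and DTNA-214 from 0 in every CP library to 10.7, at least 3.57-fold higher. DTNA-204 and DTNA-231 rose by 3.06 and 2.22. DTNA-208 and DTNA-203 share the reference exons from exon 2 to exon 10 and a last exon of the same length; apart from the first exon they differ by an exon of 9 bases that DTNA-203 holds. Assignment of reads made up 88.3% of the error variance of DTNA-208 at this step.

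Ankyrin-B rose in every listed transcript from CP to CM. ANK2 (chr4:112818032-113384221) has a giant exon of 6255 bases, known from neurons, which none of the annotated listed transcripts holds. ANK2-221, a form that starts inside the gene at exon 27, was at 112 at M, 319 at CMes, 217 at CP and 1403 in CMs. It rose by 1.5 (SE 0.27), showed a listed change of -0.56 (SE 0.19) below the fold limit, and rose again by 2.69 (SE 0.18, q = 1.3e-47). ANK2-212, which has exons 2 to 45 of the reference transcript except the giant one, went from 2.22 to 774 (8.15, SE 1.91), and the mean of 2.22 allows at most 80.0 counts in 1 CP library. ANK2-215, another form from exon 30 on, went from 3.18 to 353 (6.59, SE 1.38). ANK2-204, annotated as a retained intron, rose by 3.42 (SE 1.21) and ENST00000511380.1, not in the annotation, by 5.40 (SE 1.11). The listed long and short forms thus both had higher estimates in CMs. Assignment of reads made up 58.4% of the error variance of ANK2-212, 77.1% of ANK2-215 and 32.8% of ANK2-221 at this step. These 3 share exons, and whether each rose on its own was not tested.

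Ankyrin-G rose in steps. Of ANK3 (chr10:60026298-60733490, minus strand), 9 transcripts were listed, the most of any member. ANK3-205, with the highest estimated counts, stood at 514 at M, 756 at CMes, 1728 at CP and 2132 in CMs. It rose between CMes and CP (1.19, SE 0.13, q = 2.1e-17); the change from M to CMes, 0.56 (SE 0.17), was below the fold limit, and that from CP to CM was not listed and read from neighbouring tables as 0.30. ANK3-202, ANK3-216, ANK3-217 and ANK3-226 also rose from CMes to CP, by 1.05, 1.19, 3.29 and 1.41. From CP to CM the transcripts that rose were ANK3-201 (1.15, SE 0.18), ANK3-204 (1.15, SE 0.20), ANK3-217 (1.98, SE 0.40), ANK3-228 (2.87, SE 0.63) and ANK3-232 (3.69, SE 0.37). ANK3-201 alone among these holds the giant exon of 7812 bases; it went from 293 to 649, which per kilobase is 17.2 and 38.2, beside 240 and 296 for ANK3-205. On that scale ANK3-202 was above ANK3-205 at CP, at 282, and ANK3-204 was level with it in CMs, at 294. ANK3-204 was the one listed transcript to fall early, from 254 in iPSCs to 125 at M (-1.02, SE 0.28). ANK3-232, with the largest rise from CP to CM, is annotated as subject to nonsense-mediated decay. At that step, assignment of reads made up 85.2% of the error variance of ANK3-228 and 48.5% of that of ANK3-232.

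Per kilobase, βII-spectrin had the highest level in CMs. SPTBN1-202 (SPTBN1, chr2:54456317-54671446) stood at 5781 at M, 7487 at CMes, 8685 at CP and 26914 in CMs. Its only rise past the fold limit was the last, 1.63 (SE 0.20, q = 6.0e-14), with libraries of a group within an SD of 0.10. SPTBN1-201, which lacks the last exons of the reference and ends in its own, rose by 1.09 (SE 0.33), SPTBN1-203 by 1.52 (SE 0.48), and SPTBN1-204, annotated as a retained intron, by 1.18 (SE 0.39). Per kilobase SPTBN1-202 stood at 2636 in CMs, above SPTAN1-201 at 1204 by 1.13 on the log2 scale (SE 0.19). Further down that order, ANK3-205 (296), DTNA-208 (276) and ANK2-221 (272) did not differ beyond their errors, and SGCA-201 was lowest of the genes with a value, at 99.1.

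**Figure D2:**
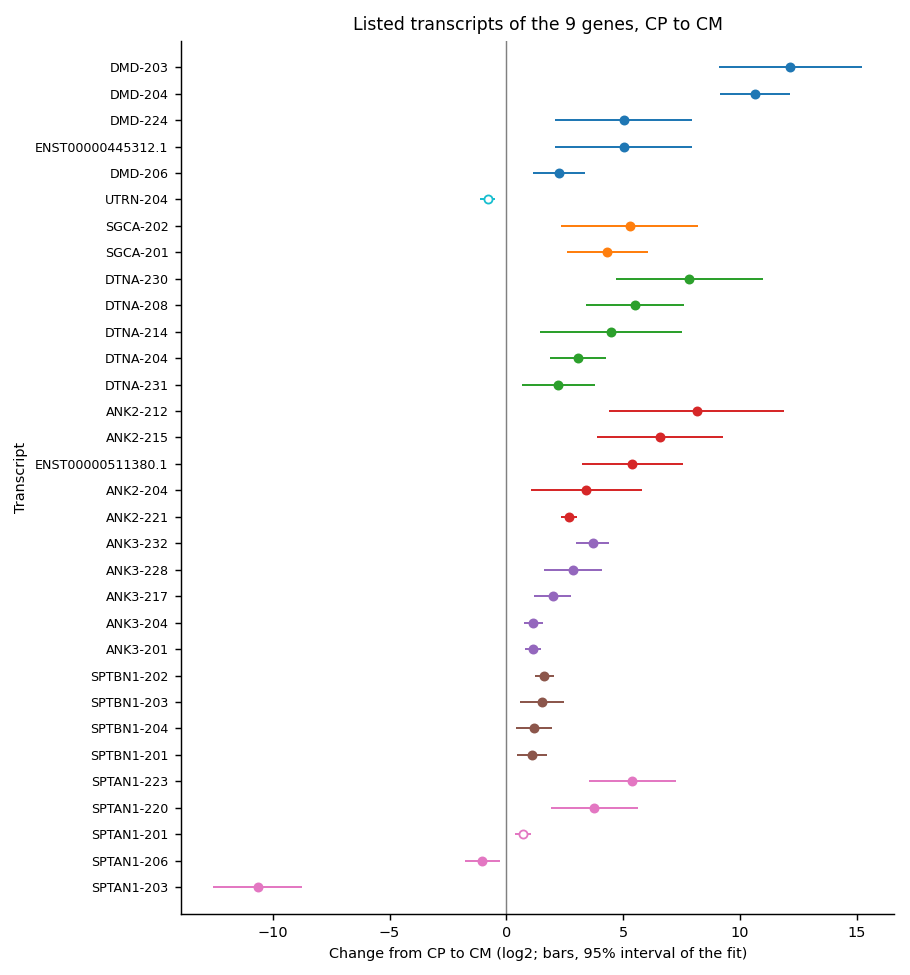
Change from CP to CM (log2, x axis) of the 32 listed member transcripts, with 95% intervals; filled points pass the fold limit, open points do not. Of these, 29 lie to the right of 0, and SPTAN1-203 lies farthest to the left at -10.65.

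αII-spectrin was the one member in which full-length transcripts moved in opposite directions. SPTAN1 (chr9:128552558-128633662) had 5 full-length transcripts in the tables, which differ in 3 cassette exons of 60, 15 and 63 bases, all multiples of 3 that keep the reading frame. The exons are shown in capitals with 10 intron bases on each side, since the coding sequences of these transcripts differ in them; some also have first or last exons of their own.
SPTAN1 exon of 60 nt, chr9:128592973-128593052: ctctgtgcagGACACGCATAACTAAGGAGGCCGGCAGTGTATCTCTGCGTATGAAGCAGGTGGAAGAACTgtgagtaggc
SPTAN1 exon of 15 nt, chr9:128609641-128609675: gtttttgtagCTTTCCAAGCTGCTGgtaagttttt
SPTAN1 exon of 63 nt, chr9:128629115-128629197: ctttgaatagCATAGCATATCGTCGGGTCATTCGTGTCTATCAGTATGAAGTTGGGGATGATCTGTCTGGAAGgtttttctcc
SPTAN1-201 holds none of them (coding length 7356 bases), SPTAN1-202 the exon of 60 (7416), SPTAN1-222 the exon of 15 (7371), SPTAN1-203, the reference transcript, those of 60 and 15 (7431), and SPTAN1-223 all 3 (7494).

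SPTAN1-203 was one of the main forms at M, at 2432 beside 2225 for SPTAN1-201. It stood at 1389 at CMes and 1147 at CP and was all but absent in CMs, at 0.213, a mean that allows at most 0.947 counts in any CM library. The change from CP to CM was -10.65 (SE 0.96, q = 3.1e-26, SD between libraries 0.67). SPTAN1-223 went the other way, from 168 to 7094 (5.40, SE 0.94, q = 2.6e-07). SPTAN1-201, without cassettes, rose from M to CMes by 0.90 (SE 0.26) and had a listed change of 0.70 (SE 0.17) from CP to CM, at a level of 5790 and then 9387. Of the sum of these 3 transcripts, SPTAN1-203 made up 16.1% at CP and 0.00129% in CMs, SPTAN1-223 2.37% and 43.0%, and SPTAN1-201 81.5% and 57.0%. SPTAN1-222 has no value in CMs and is left out of that sum; with it, the shares at CP were 52.1% for SPTAN1-201, 36.0% for SPTAN1-222, 10.3% for SPTAN1-203 and 1.51% for SPTAN1-223. SPTAN1-222 rose from CMes to CP, from 1050 to 4000 (1.93, SE 0.47), and was not listed later. The retained-intron transcripts SPTAN1-206 and SPTAN1-220 changed by -1.03 (SE 0.38) and 3.78 (SE 0.94) from CP to CM. SPTAN1-203 and SPTAN1-223 differ only by the exon of 63 bases and their first and last exons. Assignment of reads made up 98.1% of the error variance of SPTAN1-223 and 58.2% of that of SPTAN1-203 at this step.

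**Figure D3:**
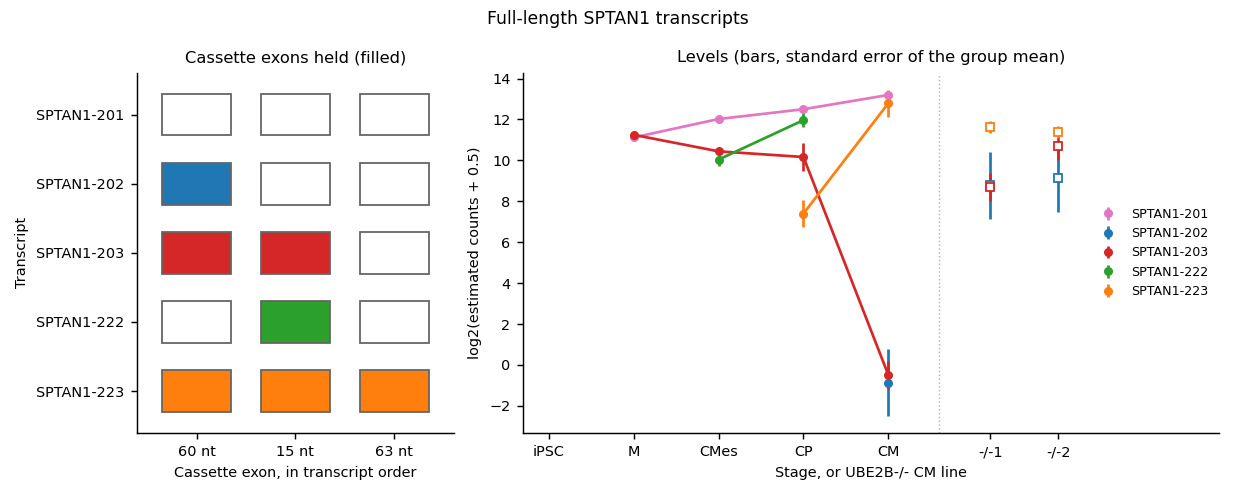
Left, which of the 3 cassette exons each full-length SPTAN1 transcript holds (filled boxes). Right, level as log2(estimated counts + 0.5) by stage and in the UBE2B-/- CM lines (squares). Bars are the standard error of a group mean from the pooled error of the fit, the largest where several comparisons hold the group. From CP to CM SPTAN1-203 drops from 1147 to 0.213 and SPTAN1-223 climbs from 168 to 7094; in the lines SPTAN1-203 is at 414 and 1690.

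Of the 43 member transcripts, 15 were listed for a UBE2B-/- line, 13 of them with lower and 2 with higher values than in wild type. For UBE2B-/-1 12 member transcripts fell and 2 rose (of all transcripts tested, 1.72% fell and 2.18% rose). For UBE2B-/-2 9 fell and 2 rose (1.53% and 2.46%). The 15 came from 6 genes; UTRN, SGCA and SGCD had none. Both line comparisons and the CP to CM comparison use the same wild-type CM libraries. The median change of the listed members was -1.98 in UBE2B-/-1 and -1.37 in UBE2B-/-2, beside 0.73 and 0.87 for all transcripts listed.

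DMD-203 fell in both lines, from 6712 in wild-type CMs to 1243 in UBE2B-/-1 and 1940 in UBE2B-/-2. The log2 changes were -2.43 and -1.79 (SE 0.46 each, q = 2.5e-05 and 0.0047). No other DMD transcript was listed. Both values lie far above the CP level of 0.962. DTNA-208 fell from 464 to 110 and 141 (-2.07 and -1.71, SE 0.50).

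Of 5 ANK2 transcripts 3 fell in each line, and of 9 ANK3 transcripts 6 fell in UBE2B-/-1 and 3 in UBE2B-/-2; ANK2-204, ENST00000511380.1, ANK3-202, ANK3-217 and ANK3-226 had no value for either line. ANK2-221 went from 1403 to 534 and 630 (-1.39 and -1.15, SE 0.35), ANK2-212 from 774 to 173 and 252 (-2.16 and -1.62, SE 0.36) and ANK2-215 from 353 to 60.7 and 70.4 (-2.53 and -2.32, SE 0.66). ANK3-205 went from 2132 to 796 and 1153 (-1.42 and -0.89, SE 0.28), and its line 2 value is the called value nearest to the fold limit. ANK3-201, the form with the giant exon, went from 649 to 198 and 259 (-1.71 and -1.32, SE 0.27). ANK3-228 fell by 1.88 and 1.37 (SE 0.43). ANK3-204, ANK3-232 and ANK3-216 were listed for UBE2B-/-1 alone (-1.78, -2.27 and -2.38). For UBE2B-/-2 the fit gives -1.53 for ANK3-204 and -1.37 for ANK3-232, and either -0.98 or -1.41 for ANK3-216. Ankyrin-G transcripts absent from one list thus still had negative values there. These sizes stand beside median changes of -1.52 and -1.90 in the cardiomyocyte marker genes listed for the same lines.

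SPTAN1 again split. SPTAN1-203, at 0.213 in wild-type CMs, was at 414 in UBE2B-/-1 and 1690 in UBE2B-/-2 (9.34 and 11.37, SE 0.98, q = 1.0e-17 and 5.3e-27). SPTAN1-202, the form with the exon of 60 bases alone, was at 0.0473 in wild-type CMs and at 440 and 560 in the lines (9.84 and 10.19, SE 2.31), with a wide log2 SD between libraries of 2.83. The mean of 0.0473 allows at most 0.156 counts in 1 wild-type library. SPTAN1-223, with all 3 exons, fell in UBE2B-/-2 (-1.39, SE 0.42, q = 0.027), and the value solved for UBE2B-/-1 was -1.14; its levels were 7094 in wild type, 3210 and 2698. Forms with the exon of 60 bases but without that of 63 were thus near 0 in wild-type CMs and present in both lines. Other full-length forms, including SPTAN1-201, were not listed. Assignment of reads made up 83.6% of the error variance of SPTAN1-203 in this fit. SPTAN1-203 was also present at CP (1147), and mesenchymal genes were higher in both lines; their part in these values was not tested.

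SPTBN1-203 was the member for which the fitted values of the lines lay farthest apart. With a t distribution that difference did not pass, as given below. It is a short βII-spectrin transcript with exons 2 to 13 of the reference and a last exon of its own of 272 bases, so it encodes the actin-binding end and the first repeats. Its level was 681 in wild-type CMs, 0 in every library of UBE2B-/-1 and 219 in UBE2B-/-2. Against a floor of 3 counts per library it was at least 227-fold lower in UBE2B-/-1 than in wild type. That floor, here and for other transcripts, does not allow for reads assigned to another transcript. Assignment of reads made up 64.8% of the error variance of SPTBN1-203 in this fit, and SPTBN1-202 holds the same exons 2 to 13. In UBE2B-/-2 SPTBN1-203 was not listed and the solved change was -1.63 (SE 0.92). The main transcript SPTBN1-202 was not listed for either line.

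**Figure D4:**
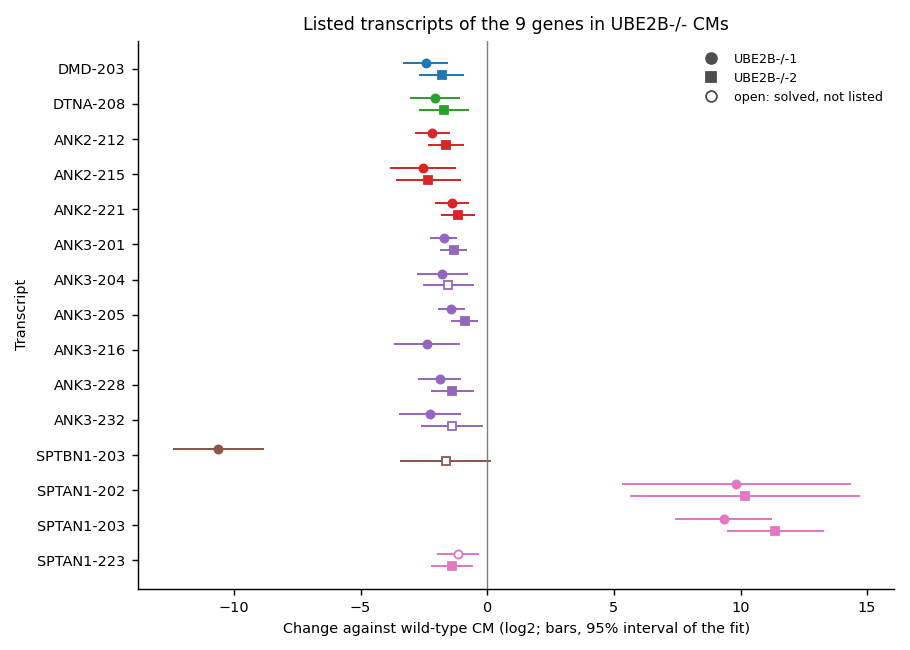
Change against wild-type CMs (log2, x axis) of the 15 member transcripts listed for a UBE2B-/- line, with 95% intervals; circles are UBE2B-/-1, squares UBE2B-/-2, and open symbols are values solved from the fit where that line was not listed. SPTBN1-203 lies at -10.62 in UBE2B-/-1 and -1.63 in UBE2B-/-2, and the only transcripts to the right of 0 are SPTAN1-202 and SPTAN1-203.

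The lines were compared directly, with the difference of their effects over the standard error of 1 line and a two-sided normal test. Among 10 member transcripts listed for both lines, 0 differed after Benjamini-Hochberg adjustment over the 1992 transcripts listed for both, of which 0% passed; 1 member, SPTAN1-203, had an unadjusted p under 0.05 (difference -2.03 on the log2 scale, 95% interval -3.94 to -0.11), as did 29 of the 1992. Listing in both tables favours transcripts on which the lines are alike. For DMD-203 the difference was -0.64 with an interval of -1.54 to 0.25, and for ANK3-205 it was -0.53 with an interval of -1.07 to 0.01. With the transcripts whose unlisted value could be solved (3027 in all, adjusted over all 65457 tested), 1 member differed, SPTBN1-203, with a fitted difference of -8.99 (95% interval of the fit -10.78 to -7.19, q = 6.97e-18), beside 0.0661% of all transcripts with a value. Since UBE2B-/-1 was at 0 in every library, the fitted difference and its interval depend on the pseudocount of 0.5 and are no bound; against the floor of 3 counts per library the level was at least 73.1-fold higher in UBE2B-/-2, or 6.19 on the log2 scale. This test was added after the values were seen. Judged by a t distribution with 6 degrees of freedom, the q of this difference was 1.

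Other genes of the pathways were read from lists. The counts below only describe these lists, since each gene was read from a listed transcript and no share over all genes stands beside them. Of 15 other genes of the dystrophin complex, 4 rose and 3 fell from CP to CM in their most abundant listed transcript. SSPN, sarcospan, rose by 4.70 (SE 0.42) and LAMA2, the laminin chain of muscle basement membrane, by 8.92 (SE 2.39). The most abundant listed transcript of DTNB, β-dystrobrevin, fell by 6.59 (SE 1.72), while the listed DTNA transcripts rose. It went from 133 to 0.887, so the size of the fall rests on counts near 0 in CMs. DAG1, dystroglycan itself, fell from iPSC to M (-0.85, SE 0.12) and rose from M to CMes by 1.11 (SE 0.16) and from CMes to CP by 0.97 (SE 0.15). In earlier steps 0 rose and 2 fell from iPSC to M, 2 rose and 1 fell from M to CMes, and 3 rose and 1 fell from CMes to CP.

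In the UBE2B-/- lines 2 of these 15 genes rose and 2 fell in UBE2B-/-1, and 2 rose and 1 fell in UBE2B-/-2. LAMA2 fell in both (-2.09 and -1.93, SE 0.43). The DTNB transcript that fell from CP to CM, at 0.887 in wild-type CMs, rose in both (5.61 and 6.07, SE 1.58). So did a DAG1 transcript other than the one listed between stages (6.81 in each, SE 1.83). Of 18 enzymes that put sugars on dystroglycan, 3 rose and 0 fell from CP to CM, POMT2 by 1.2 (SE 0.17); POMGNT2 and GMPPB rose in both lines, by 1.29 and 1.63 (SE 0.37) and by 1.13 and 1.43 (SE 0.32). Earlier, the only call among these enzymes was a fall of LARGE2 from M to CMes (-1.34, SE 0.36).

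Of 18 other spectrins, ankyrins and proteins of the spectrin skeleton, 8 rose and 5 fell from CP to CM. SPTB, the erythroid and muscle β-spectrin, rose from 2.21 to 1071 (8.62, SE 2.45), and ANK1 rose by 4.65 (SE 1.78). Before that, 3 rose from iPSC to M, 6 rose and 3 fell from M to CMes, and 1 rose and 2 fell from CMes to CP, where ADD2, an adducin, fell by 3.08 (SE 0.23). TMOD1, which caps actin at its pointed end, rose from M to CMes by 8.0 (SE 2.31). In UBE2B-/-1 2 rose and 1 fell, among them EPB41L1 (5.78, SE 1.5) and ADD1 (-1.35, SE 0.38). In UBE2B-/-2 1 rose and 1 fell, another EPB41L1 transcript (1.08, SE 0.29) and EPB41L3 (-1.13, SE 0.32). These counts are of genes, each read from its most abundant listed transcript. The percentages given above for the same comparisons are of single transcripts, so the 2 are not directly comparable. No share over all genes is given here.

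The test treats the standardized change as normal although each group has 3 libraries; with a t distribution on the residual degrees of freedom, the calls that remained were 2 rises (DMD-204 and ANK2-221) and 1 fall (SPTAN1-203), all from CP to CM. Just past and just short of the fold limit lay ANK3-205 in UBE2B-/-2 (-0.89) and SPTAN1-203 from M to CMes (-0.81).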

How the data were processed

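Poly-A RNA of 21 libraries in 7 groups was analysed. Per the paper's methods and the labels, the authors quantified reads against human transcripts with Kallisto (hg38) and fitted Sleuth; they deposited 6 result tables and 0 columns of per-sample values, so depth per library is unknown and no interval for counting error can be given. The authors' tables hold, for each transcript with a q-value up to 0.05, the Wald p-value and q-value, the effect, its standard error and the mean as natural log values of normalized estimated counts plus 0.5, and variance scores on the squared natural-log scale. Stage tables compare 6 libraries; the UBE2B-/- tables come from 1 fit of 9. These fold changes, p-values and q-values are the authors' own fits and were used because no other value per transcript is in the files; it was checked that standard errors and p-values follow from the other columns, and that both UBE2B-/- tables share standard errors and means.

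Group levels were computed from mean and effect, and tables were joined by the median offset of the shared stage. An effect not listed for 1 UBE2B-/- line was solved from the variance columns of the fit, and the solution was chosen by the CM level in the CP to CM table; on 1219 transcripts listed in all 3 tables the median gap to the listed value was 0.000388 (log2), and these steps were tested on simulated data. Of 43 transcripts, 40 matched GENCODE 44 (31 with the same version); lengths and exons come from there, and sequences from GRCh38. Python 3.11.15, numpy 2.4.6, pandas 2.3.3 and scipy 1.17.1 were used. A call needed q up to 0.05 and an absolute natural-log effect of at least 0.585, the log2 of the 1.5-fold limit the study names. The members, gene lists and tests were chosen with earlier results of these data known. Named were all 9 genes and, per gene, the most abundant listed transcript, those opposite to it and those with the largest effects; remaining members are named where a count needed them. From each other list up to 3 genes per table with the largest effects were eligible, and some are not reported here; DAG1 from CMes to CP falls outside this and was chosen after its value was seen. The alternatives were a limit of 1.5-fold on the natural log, no fold limit, a q-value limit of 0.01, the smoothed variance, a t distribution, 1 transcript a gene and another offset. The p-values rest on the variance of the fit, which adds the error of assigning reads to transcripts to the biological variance it used. They thus do not measure the spread between libraries alone.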

Additional observations from a re-analysis of the deposited data

Results flagged for a closer look

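SPTBN1-203 differed between the knockout lines by a test of the difference itself: its change in UBE2B-/-1 minus that in UBE2B-/-2 was fitted as -8.99 on the log2 scale (q = 6.97e-18, two-sided normal test on the standard error of the fit, adjusted over 65457 transcripts). Judged by a t distribution with 6 degrees of freedom, q was 1. The transcript was at 0 in all 3 UBE2B-/-1 libraries and at 219 in UBE2B-/-2, beside 681 in wild-type CMs. With UBE2B-/-1 at 0, the fitted value depends on the pseudocount of 0.5; against the floor of 3 counts per library, the level was at least 73.1-fold higher in UBE2B-/-2. The test was added after the values were seen, and the value of UBE2B-/-2 was solved from the fit and not listed. Assignment of reads made up 64.8% of its error variance.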

How the results depend on the processing

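No paired analysis was possible because the tables hold no values per library; for the same reason leaving out each replicate, another pseudocount and a low-count filter were not run. Depth per library is unknown. With a t distribution on the residual degrees of freedom, 0 member transcripts rose and 0 fell at the 3 steps up to CP or in either UBE2B-/- line, and 2 rose and 1 fell from CP to CM; 72 of 75 calls were lost. A q limit of 0.01 left 2 rises and 0 falls from M to CMes, 0 falls from CMes to CP, 1 fall from CP to CM and 3 falls in UBE2B-/-2. A limit of 1.5-fold on the natural log gave 2 falls from M to CMes, and no size limit gave 2 falls there and 2 from CMes to CP. Counting 1 transcript a gene gave 4 rises from CMes to CP, 6 rises and 0 falls from CP to CM, 1 rise and 5 falls in UBE2B-/-1, and 0 rises and 5 falls in UBE2B-/-2; fewer transcripts are counted by construction. Of the members listed for both lines, 1 differed between lines at an unadjusted p under 0.05; with solved transcripts 1 differed with the normal distribution and 0 with the t distribution. The smoothed variance alone changed 0 of 82 calls, and another offset kept the direction of all 5 changes read from neighbouring tables. For the other changed values the cause was not tested.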
